A study of Bos taurus with 12 samples.

Results

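The proteasome subunit genes are the genes whose names consist of PSM, a letter from A to G and a number. The tables of the bovine corpus luteum held 48 such names, and 46 of them had 10 counts or more in no fewer than 4 of 12 libraries, as did 14481 of the 27270 genes in the tables. They comprised 14 subunits of the constitutive core (PSMA1 to PSMA7 and PSMB1 to PSMB7), 3 immunoproteasome subunits (PSMB8, PSMB9 and PSMB10) and 20 PSMC and PSMD genes of the regulatory cap, of which 3 encode assembly chaperones. The remaining members were 4 activators (PSME1 to PSME4), the inhibitor PSMF1 and 4 chaperones that assemble the core (PSMG1 to PSMG4). PSMA8 and PSMB11, the core subunits of testis and of thymus, had 0 to 2 counts in every control cow and 0 counts in every treated cow and were not tested. The lowest member that was tested, PSMD10, had 5.84 to 13.1 CPM (count per TMM-scaled library size).

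Whole luteal tissue was sequenced from 12 cows, 1 library per cow, so the cow is the replicate. All cows were of mixed breed and at the mid-luteal phase (day 10 of the cycle), and all had been synchronized with earlier injections of PGF2α, the prostaglandin that ends the life of the corpus luteum. The control group (n = 4) was given saline, and the other groups were given a luteolytic dose of PGF2α intramuscularly and were ovariectomized 4 h (n = 4) or 12 h (n = 4) later. Saline cows serve as the control of both times, so the values at 4 h and at 12 h are not independent of each other.

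The proteasome is the protease that degrades proteins tagged with ubiquitin in the cytosol and nucleus. A barrel-shaped core holds the proteolytic sites inside inner rings of β subunits and opens through outer rings of α subunits, while the cap recognizes the ubiquitin chain, unfolds the protein and threads it into the core. Interferon-γ exchanges some of the β subunits for immunoproteasome forms, which cut peptides suited to presentation on MHC class I. In the corpus luteum, the proteasome works in steroidogenic cells and in the leukocytes of the tissue alike.

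Total expected counts, RSEM's estimates of reads per library, ranged from 10263310 to 22600213. The luteal label was checked with 6 steroidogenic genes, which summed to 20090 to 29790 TPM in controls. That sum was 18890 to 22700 TPM at 4 h and 5036 to 10550 TPM at 12 h, when 5 of the 6 fell (log2 fold changes of -3.15 for HSD3B1 and -2.49 for STAR). Among 12 macrophage genes, 7 rose and 0 fell at 12 h, with sums of 139.7 to 345.5 TPM in controls and 318 to 524 TPM at 12 h. Of all genes tested 23.6% rose and 25.3% fell at 12 h. In whole tissue, fewer cells of a type and less RNA per cell cannot be told apart. Weighting each gene by its TPM, the transcripts averaged 1682 ± 41.9 bases in controls, 1700 ± 54.2 bases at 4 h and 1479 ± 69.7 bases at 12 h, with the SD over 4 cows. In 12 h cow6314, which lay apart from its group for several members, the average was 1577 bases. Mitochondrially encoded genes took 6.77 to 10.0% of counts in controls, 7.78 to 10.2% at 4 h and 12.4 to 14.1% in 3 of the 12 h cows, with 7.22% in cow6314. By the edgeR test described below, a fit without these genes had 16 of 46 members risen and 7 fallen at 12 h. Among all genes of that fit, 3722 of 14468 rose and 3441 fell. With these genes kept, 14 members rose and 7 fell.

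In control cows the proteasome genes ranged from 16.2 ± 2.06 TPM for PSMD10 to 293 ± 24.5 TPM for PSMB1 (SD, n = 4). Levels are given in TPM, which is per transcript length and so allows genes to be compared. The 14 constitutive core genes lay between 101 ± 4.54 TPM for PSMB5, the subunit with chymotrypsin-like activity, and 293 ± 24.5 TPM for PSMB1 (SD, n = 4), a 2.89-fold range. PSMB1 and the α subunit PSMA7, at 286 ± 16.5 TPM, did not differ beyond their spread and stood above the other core genes. The 3 immunoproteasome genes reached the level of the core, with 167 ± 62.6 TPM for PSMB8, 187 ± 52.7 TPM for PSMB9 and 139.6 ± 33.6 TPM for PSMB10. Their SDs were wider than those of the core genes, and the plot of control levels shows this as the long bars of the immunoproteasome.

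**Figure D1:**
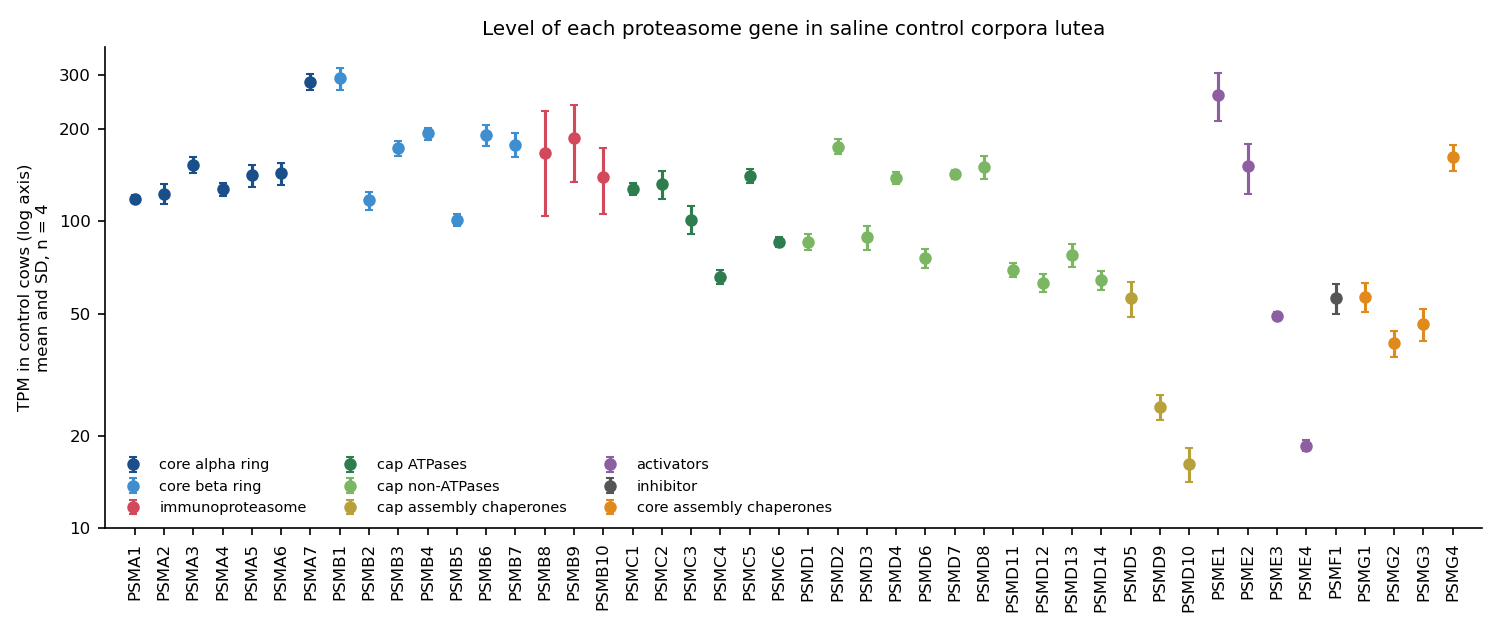
Level in TPM (log axis) of each of the 46 proteasome genes in the 4 saline control cows, as points for the mean and bars for the SD, colored by class. Core genes lie between 101 and 293 TPM, and the lowest members are PSMD10 at 16.2 and PSME4 at 18.6 TPM.

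The cap genes ranged lower. The 6 ATPases (PSMC1 to PSMC6), which form the unfolding ring, lay between 65.9 ± 3.45 TPM for PSMC4 and 141 ± 7.27 TPM for PSMC5. The 11 non-ATPase subunits lay between 63.1 ± 4.35 TPM for PSMD12 and 176 ± 9.88 TPM for PSMD2, a large scaffold that docks ubiquitin receptors. The chaperones of cap assembly were the lowest group, with 56.2 ± 7.46 TPM for PSMD5, 24.9 ± 2.35 TPM for PSMD9 and 16.2 ± 2.06 TPM for PSMD10. Activators ranged from 18.6 ± 0.797 TPM for PSME4 to 259 ± 46.3 TPM for PSME1. PSMG4 stood apart from the other core chaperones at 162 ± 15.9 TPM against 40.1 ± 3.89 to 56.8 ± 5.99 TPM, and it has the shortest transcript of all members (372 bases). Of the 46 members, 8 overlap another gene in the annotation, and how the authors' counting divided such reads is not given in the sources used here. PSME1 and PSME2 overlap each other, so their values may share reads.

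At 4 h post-injection of PGF2α, PSME4 increased, PSMA4 decreased, and no other proteasome gene passed the test. Changes are log2 fold changes of counts scaled between libraries by the TMM method, tested with edgeR's quasi-likelihood test at a Benjamini-Hochberg adjusted p of 0.05 over all 14481 genes. Thus 1 of 46 members rose and 1 fell, where 8.65% of all genes tested rose and 5.59% fell. The median change of the members was -0.11, and that of all genes was -0.03. At an unadjusted p under 0.05, 1 member was higher and 8 were lower. DESeq2 called the same 2 members and also placed PSMB5 and PSMD1 among the genes that fell, which gave 3 falls where it called 7.46% of all genes as fallen.

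PSME4 encodes a large nuclear activator that opens the core without ubiquitin or ATP. It lies on chromosome 11, 36572842 to 36673067 of ARS-UCD1.2. Its TMM-scaled CPM were 78.9, 76.0, 84.5 and 75.9 in the control cows, 134, 138, 102 and 135 at 4 h and 83.7, 104, 91.0 and 95.9 at 12 h. All 4 cows at 4 h lay above all controls, with cow6455 (101.5) below the other 3, and the 12 h cows overlapped both groups. The log2 fold change at 4 h was 0.69 (SE 0.11; edgeR, adjusted p = 0.0013), a 1.61-fold increase, and it passed the test under all 22 alternatives. In TPM its mean went from 18.6 ± 0.797 to 29.5 ± 4.96 at 4 h and 17.9 ± 3.30 at 12 h. Between 4 h and 12 h PSME4 fell by 0.44 on the log2 scale (edgeR, adjusted p = 0.0048). This later fall rests on the scale, since with an offset for transcript length the difference was -0.04 and did not pass, while the change from control to 12 h was 0.59 and did. PSME4 has the longest transcript of the members (7062 bases).

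PSMA4 encodes an α ring subunit and lies on chromosome 21, 30920003 to 30927850. Its scaled CPM were 81.0, 80.5, 77.3 and 79.6 in controls, 65.3, 56.5, 55.0 and 65.2 at 4 h and 76.0, 78.1, 89.9 and 69.8 at 12 h. Every 4 h cow was below every control cow, and the 12 h cows lay on both sides of the controls. The log2 fold change at 4 h was -0.40 (SE 0.09; edgeR, adjusted p = 0.014), a drop to 0.760 of the control level, and at 12 h it was -0.02 and did not pass, though on the TPM scale it fell by 0.33. Without 4 h cow5341 the fall at 4 h no longer passed the test. The other 6 α subunits had changes of -0.20 to -0.02 at 4 h, none of which passed.

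**Figure D2:**
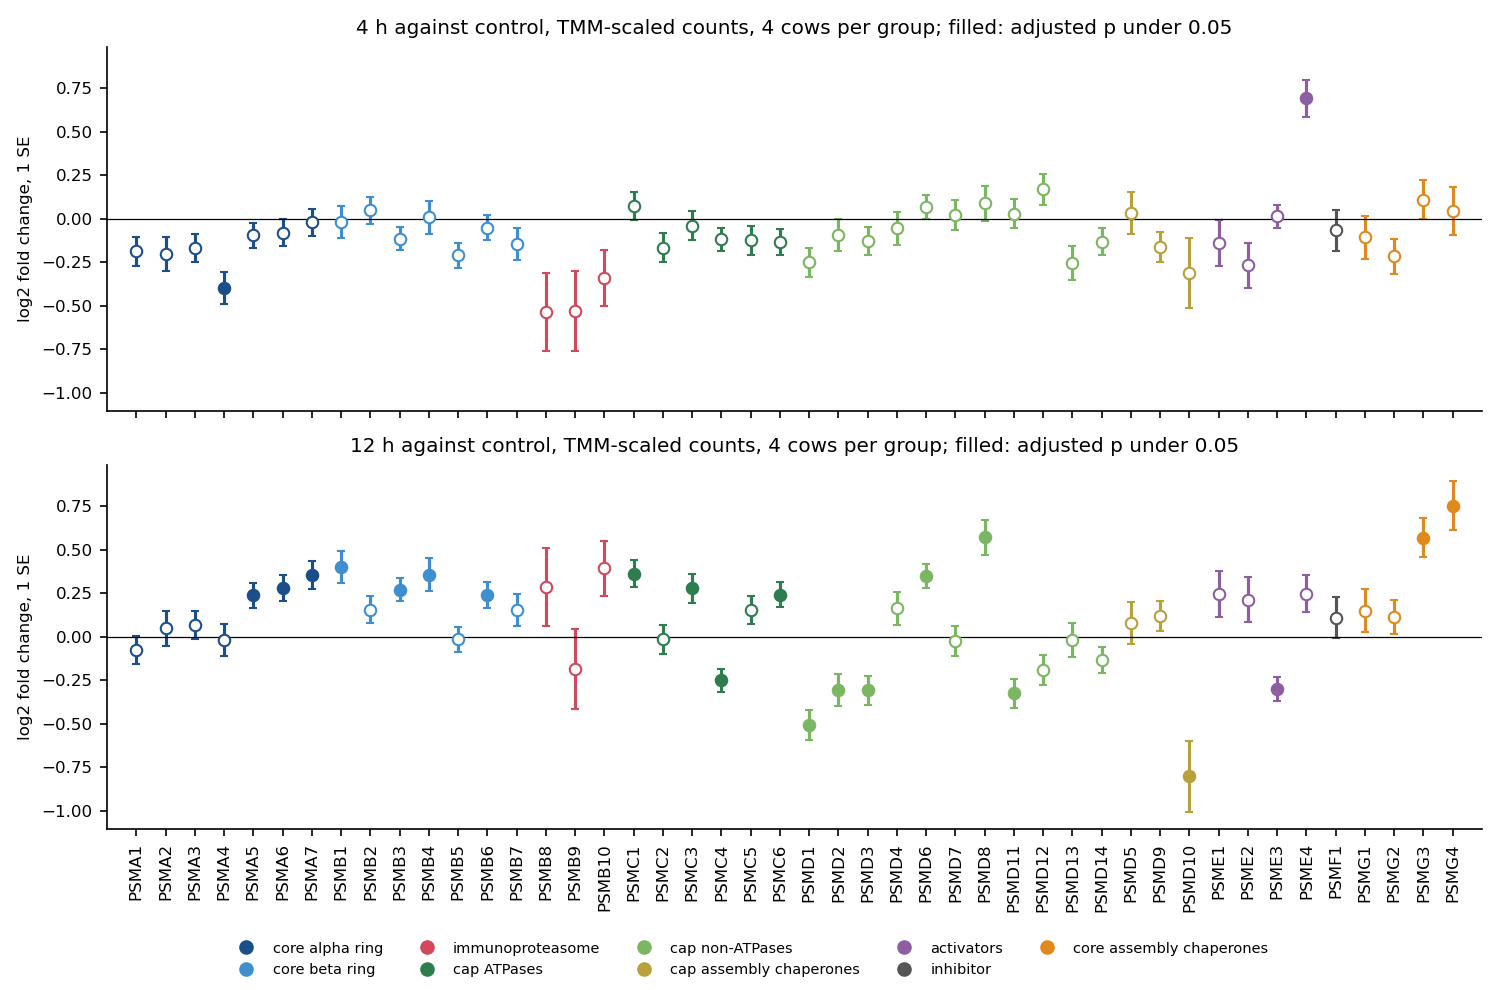
Log2 fold change of TMM-scaled counts against control for each proteasome gene at 4 h (top) and 12 h (bottom), with bars of 1 SE and filled points for an adjusted p under 0.05 (edgeR, n = 4 cows per group). At 4 h only PSME4 and PSMA4 are filled. At 12 h there are 14 filled points above 0 and 7 below, of which 6 of the 14 have the opposite sign on the TPM scale.

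At 12 h post-injection, proteasome genes moved in both directions and by small amounts, with core subunits among those that rose and large scaffold subunits of the cap among those that fell, though of the rises only those of PSMD8 and PSMG4 passed on all 3 scales (TMM, TPM and length offset), as all 7 falls did. With TMM scaling 14 of 46 members rose and 7 fell (edgeR), where 23.6% of all genes tested rose and 25.3% fell. Changes ran from -0.80 for PSMD10, 0.574 of the control level, to 0.75 for PSMG4, 1.68 times it. The median of the members was 0.15, and that of all genes was 0.01.

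The direction of these changes depended on the scale. On the log2(TPM + 1) scale, tested with limma, the median of all genes at 12 h was -0.25, and 2 members rose and 17 fell, where 10.4% of all genes rose and 38.9% fell. The median of the members was then -0.18, which is 0.07 above that of all genes. All 14 members that rose with TMM scaling lay above the median of all genes on the TPM scale, but 6 of them were below 0 and only PSMD8 and PSMG4 passed the test. The 7 members that fell with TMM scaling fell on the TPM scale too. When the smooth dependence of counts on transcript length was removed from every library as an offset, edgeR called 10 members as risen and 8 as fallen, where 23.0% of all genes rose and 23.9% fell, and the members' median was 0.01.

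Of the constitutive core, 7 of 14 genes rose at 12 h with TMM scaling and 0 fell. No core gene was lower at an unadjusted p under 0.05, and DESeq2 called 0 as fallen as well. The share of all genes that rose was 23.6%. With the length offset 3 of the 14 rose and 0 fell, where 23.0% of all genes rose. On the TPM scale 0 core genes rose and 5 fell, where 38.9% of all genes fell. The genes that rose were the α subunits PSMA5, PSMA6 and PSMA7 and the β subunits PSMB1, PSMB3, PSMB4 and PSMB6, the last of which carries the caspase-like site. Their log2 fold changes ran from 0.24 for PSMA5 to 0.40 for PSMB1, and on the TPM scale from -0.07 for PSMB6 to 0.09 for PSMB1. PSMB1, on chromosome 9, 104070553 to 104088278, had 135, 130.5, 132 and 149 scaled CPM in controls, 131, 129, 153 and 126 at 4 h and 188, 161, 177 and 196 at 12 h. Every 12 h cow lay above every control and every 4 h cow. Against control it changed by 0.40 (SE 0.09; edgeR, adjusted p = 0.0033) on the log2 scale.

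The other 2 catalytic subunits of the constitutive core did not pass at 12 h with TMM scaling. PSMB5, with the chymotrypsin-like site, had a log2 fold change of -0.01 (SE 0.07; edgeR, adjusted p = 0.88) and PSMB7, with the trypsin-like site, one of 0.15 (SE 0.09; edgeR, adjusted p = 0.19), with TMM scaling. PSMB5 fell on the TPM scale, by 0.32, and PSMB7 was at -0.16 and did not pass. The summed level of the 14 core genes in TPM was 2341 ± 103 in controls, 2149 ± 81.3 TPM at 4 h and 2192 ± 101.5 at 12 h (SD over 4 cows). No test was made of these sums.

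The immunoproteasome genes had the widest spread among control cows relative to their level. PSMB8 and PSMB9 lie on chromosome 23 beside each other (7173038 to 7176410 and 7186813 to 7193342), and PSMB10 lies on chromosome 18, 35417757 to 35421332. PSMB8, which takes the place of PSMB5, had 77.5, 144, 60.7 and 117 scaled CPM in controls, 76.5, 58.8, 59.3 and 81.0 at 4 h and 129.6, 109.9, 121 and 126 at 12 h. Controls spanned a wider range than either treated group, and every 12 h cow lay above every 4 h cow. PSMB10, which takes the place of PSMB7, had 61.9, 98.3, 58.7 and 79.0 in controls, 62.5, 53.0, 61.7 and 58.2 at 4 h and 118, 82.9, 91.1 and 98.6 at 12 h. Here too the 12 h cows lay above all 4 h cows and overlapped the controls. PSMB9, which takes the place of PSMB6, had 64.0, 94.2, 49.6 and 86.3 in controls, 63.2, 41.4, 49.5 and 49.95 at 4 h and 75.4, 40.1, 68.0 and 75.3 at 12 h, and all groups overlapped.

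Against control, 0 of the 3 immunoproteasome genes passed at 4 h by edgeR or by DESeq2, although 2 had an unadjusted p under 0.05. Their log2 fold changes at 4 h were -0.54 (SE 0.22; edgeR, adjusted p = 0.13) for PSMB8, -0.53 (SE 0.23; edgeR, adjusted p = 0.15) for PSMB9 and -0.34 (SE 0.16; edgeR, adjusted p = 0.18) for PSMB10. At 12 h edgeR again called 0, with 1 at an unadjusted p under 0.05, and DESeq2 called PSMB10 as risen. The difference between 12 h and 4 h was 0.82 (SE 0.22; edgeR, adjusted p = 0.0099) for PSMB8 and 0.73 (SE 0.16; edgeR, adjusted p = 0.0027) for PSMB10, both higher at 12 h. For PSMB10 it passed the test under all 22 alternatives, and for PSMB8 it failed on the TPM scales, where the difference was 0.55. PSMB9 differed by 0.34 (SE 0.23; edgeR, adjusted p = 0.24) and did not pass.

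The ratio of an immunoproteasome subunit to its constitutive counterpart, taken in TPM within each cow, does not depend on the scaling between libraries. It does not remove a shift tied to transcript length. PSMB8 and PSMB5 differ most in length (1081 and 2127 bases), and PSMB10 and PSMB7 are closer (975 and 1026 bases). The ratio of PSMB8 to PSMB5 was 1.37, 2.41, 0.960 and 1.85 in controls, 1.39, 1.14, 1.13 and 1.60 at 4 h and 2.08, 1.92, 2.05 and 2.03 at 12 h. The 12 h cows lay close together, above every 4 h cow and within the range of the controls. The ratio of PSMB10 to PSMB7 was 0.665, 1.13, 0.605 and 0.767 in controls, 0.709, 0.606, 0.708 and 0.721 at 4 h and 0.992, 0.897, 0.869 and 0.917 at 12 h, with the same order of groups. For PSMB9 to PSMB6 the mean was 0.980 ± 0.290 in controls, 0.702 ± 0.123 among 4 h cows and 0.724 ± 0.170 among 12 h cows, with the SD over 4 cows and overlap of all groups.

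**Figure D3:**
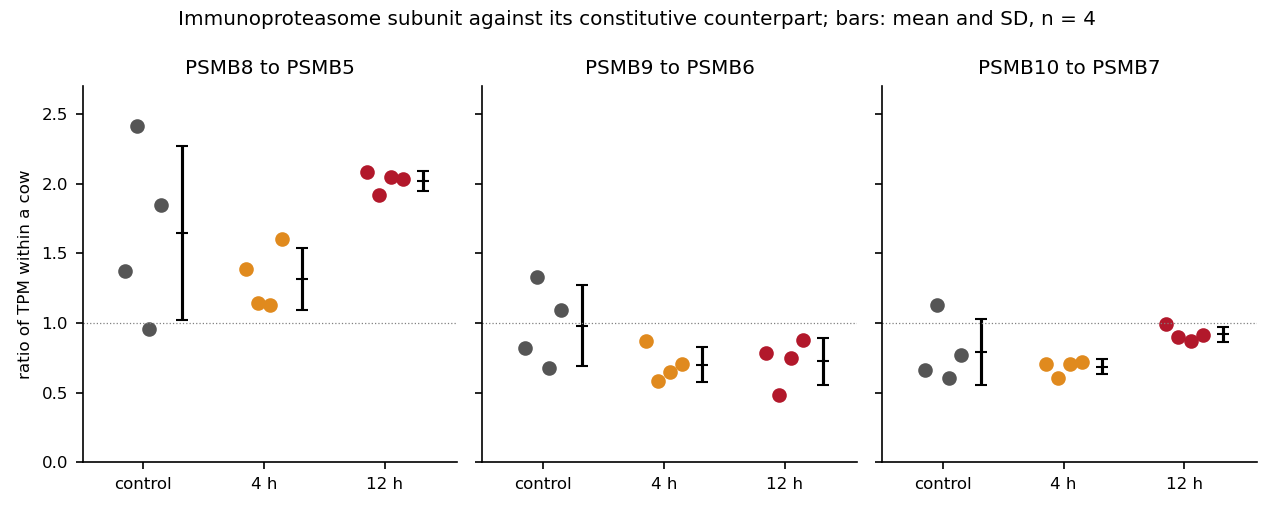
Ratio of TPM of each immunoproteasome subunit to the constitutive subunit it replaces, per cow, with the mean and SD of 4 cows beside the points. For PSMB8 to PSMB5 and for PSMB10 to PSMB7 the 12 h cows lie above all 4 h cows and overlap the controls, and for PSMB9 to PSMB6 the groups overlap.

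Leukocyte markers varied among the same cows. The sum of 6 pan-leukocyte genes was 141, 396, 133 and 209 TPM in controls, in the same order of cows as above, and control cow6464, the highest for all 3 immunoproteasome genes, was the highest of these. At 4 h the sum was 182, 184, 136 and 203 TPM and at 12 h it was 229, 305, 344 and 302 TPM, so every 12 h cow lay above every 4 h cow. Among the 12 h cows the order of the genes depended on the unit. There cow5266, with the lowest sum (229 TPM), was the highest for all 3 immunoproteasome genes in scaled CPM. In the same group cow6314 (305 TPM) was the lowest for all 3 in scaled CPM. In TPM, the unit of the sums, cow6314 was the highest for PSMB8, and cow5266 was not. Of these 6 genes 1 rose and 0 fell at 12 h by edgeR (1 and 1 by DESeq2, 2 at an unadjusted p under 0.05). At 4 h edgeR and DESeq2 called 0, with 1 at an unadjusted p under 0.05. The gene that rose was LAPTM5, a large part of the sum, with a mean of 94.3 TPM after saline, 82.1 (4 h) and 156 (12 h). PTPRC moved the other way, with means of 13.1, 7.54 and 5.86 TPM for the same groups. On the TPM scale limma called 1 of the 6 as risen and 1, PTPRC, as fallen at 12 h. Between the times edgeR called 4 as higher at 12 h and 0 as lower. The sum therefore does not describe every gene of the list. The sum of 12 T and NK cell genes was 34.9 to 141.5 TPM in controls, 29.1 to 44.55 TPM at 4 h and 52.2 to 62.9 TPM at 12 h, with 2 of 12 genes fallen at 4 h (6 by DESeq2, 1 on the TPM scale). At 12 h 1 of the 12 rose and 0 fell by edgeR, DESeq2 called 1 as risen and 2 as fallen, limma on the TPM scale called 1 of each, and 3 had an unadjusted p under 0.05. Over all genes edgeR called 8.65% as risen and 5.59% as fallen at 4 h, and 23.6% and 25.3% at 12 h. Between the times it called 22.5% as higher and 24.3% as lower at 12 h. On the TPM scale 10.4% rose and 38.9% fell at 12 h. No pan-leukocyte or T and NK cell marker was at 0 in all cows of a group. The part of leukocyte content in the immunoproteasome values was not tested.

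In the cap, the ATPases and the non-ATPase subunits each held both rises and falls at 12 h with TMM scaling. Of the 6 ATPases, PSMC1, PSMC3 and PSMC6 rose by 0.24 to 0.36 on the log2 scale with TMM scaling, PSMC4 fell by 0.25, and PSMC2 and PSMC5 did not pass. On the TPM scale PSMC3 and PSMC6 were below 0, and PSMC4 was at -0.55. The fall of PSMC4 no longer passed without control cow7514. Of the 11 non-ATPase subunits, PSMD6 and PSMD8 rose and PSMD1, PSMD2, PSMD3 and PSMD11 fell with TMM scaling. In TPM, 1 of the 11 rose and 8 fell, where 10.4% of all genes rose and 38.9% fell. With the length offset 2 rose and 5 fell, where 23.0% of all genes rose and 23.9% fell. PSMD1 and PSMD2 are the largest cap subunits, PSMD2 docking ubiquitin receptors and PSMD1 holding another receptor, and PSMD3, PSMD6, PSMD8 and PSMD11 belong to the lid that carries the deubiquitinase. The summed level of the 11 genes in TPM was 1133 ± 45.9 in controls, 1084 ± 45.7 TPM at 4 h and 920.2 ± 40.4 at 12 h (SD over 4 cows). These sums were not tested, and at 12 h the median log2 fold change of all genes on the TPM scale was -0.25.

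PSMD1, on chromosome 2, 118865174 to 118946608, had 142, 163, 174 and 163 scaled CPM in controls, 142, 143, 119.8 and 135 at 4 h and 112, 111, 113 and 116 at 12 h. All 12 h cows lay below all 4 h and control cows, between 111.3 and 115.5 CPM. At 12 h its log2 fold change was -0.51 (SE 0.08; edgeR, adjusted p = 4.24e-04), a drop to 0.704 of the control level. PSMD11, on chromosome 19, 17701898 to 17729742, had 61.0, 57.6, 62.6 and 62.7 in controls, 62.3, 68.2, 57.5 and 60.6 at 4 h and 52.2, 51.8, 45.8 and 44.8 at 12 h. The control and 4 h cows overlapped, and all 12 h cows lay below both. Its change at 12 h was -0.33 (SE 0.08; edgeR, adjusted p = 0.0059). PSMD3 fell by 0.31 on the log2 scale (edgeR, adjusted p = 0.0084). The falls of PSMD1, PSMD3 and PSMD11 passed under all 22 alternatives. PSMD2 fell by 0.31 as well (edgeR, adjusted p = 0.015), but this was lost without control cow7514 or without 12 h cow6314.

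PSMD8, a lid subunit that joins the cap late in its assembly, went the other way. It lies on chromosome 18, 48185748 to 48192106 and had 137, 119, 135 and 138 scaled CPM in controls, 140.4, 143, 144 and 136 at 4 h and 224, 161, 205 and 197 at 12 h. The 12 h cows lay above all others, with cow6314 (161) the lowest of them. By log2 fold change this was 0.57 (SE 0.10; edgeR, adjusted p = 5.77e-04), a 1.48-fold increase, and on the TPM scale it was 0.25 and passed as well. The cap subunits that bind or remove ubiquitin, PSMD4 and PSMD14, had changes of 0.16 (SE 0.10; edgeR, adjusted p = 0.18) and -0.13 (SE 0.08; edgeR, adjusted p = 0.17) with TMM scaling and did not pass, and on the TPM scale PSMD14 fell by 0.43.

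Among the chaperones of cap assembly, PSMD10 fell and PSMD5 and PSMD9 did not pass at 12 h. PSMD10 encodes gankyrin, which also binds the retinoblastoma protein, and lies on chromosome X, 56715369 to 56723016. Its scaled CPM were 13.1, 10.5, 11.4 and 12.4 in controls, 11.2, 11.6, 6.36 and 8.87 at 4 h and 6.11, 9.06, 6.03 and 5.84 at 12 h. All 12 h cows lay below all controls, and cow6314 was the highest of the 12 h cows. The log2 fold change at 12 h was -0.80 (SE 0.20; edgeR, adjusted p = 0.0064), to 0.574 of control, and it passed under all 22 alternatives. PSMD10 overlaps ATG4A in the annotation and has the lowest scaled CPM of the members, and its SE is wider than that of the other cap genes.

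**Figure D4:**
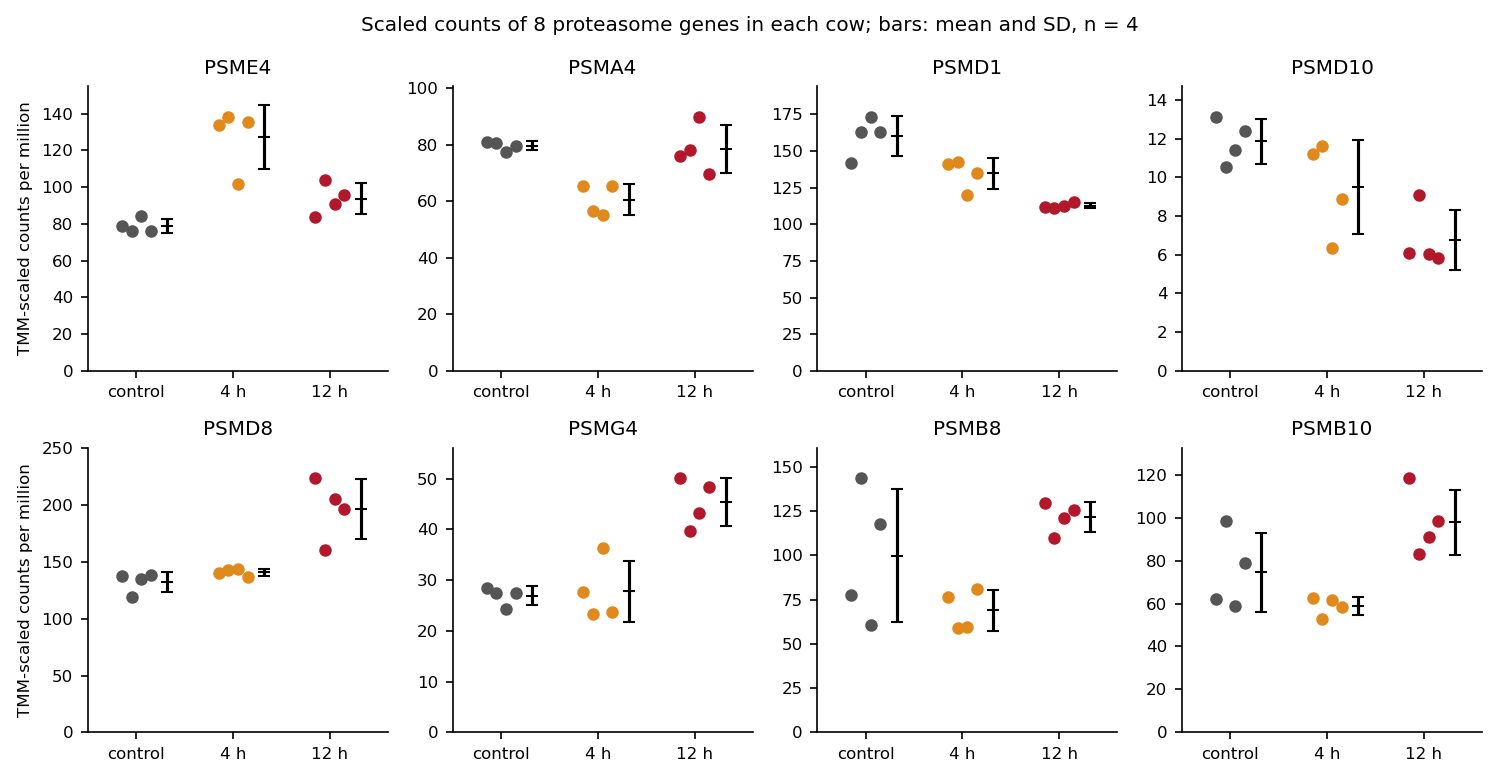
TMM-scaled CPM of 8 proteasome genes in each cow, with the mean and SD of 4 cows beside the points and axes from 0. PSME4 is high at 4 h, PSMA4 is low at 4 h, PSMD1 and PSMD10 are low at 12 h, PSMD8 and PSMG4 are high at 12 h, and PSMB8 and PSMB10 are higher at 12 h than at 4 h.

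Of the 4 chaperones that assemble the core, PSMG3 and PSMG4 rose at 12 h with TMM scaling. PSMG4, which pairs with PSMG3 to guide the α ring, lies on chromosome 23, 50462332 to 50466481 and had 28.5, 27.4, 24.3 and 27.5 scaled CPM in controls, 27.7, 23.4, 36.4 and 23.7 at 4 h and 50.1, 39.8, 43.2 and 48.4 at 12 h. Every 12 h cow lay above every other cow. Against control the log2 fold change was 0.75 (SE 0.14; edgeR, adjusted p = 7.95e-04), a 1.68-fold increase, and it was 0.44 on the TPM scale and 0.47 with the length offset, passing under all 22 alternatives. PSMG3 had 19.3, 17.6, 15.7 and 15.9 in controls, 17.9, 16.1, 19.6 and 20.4 at 4 h and 27.1, 25.7, 22.1 and 26.6 at 12 h. Its 12 h cows also lay above all others, and its change was 0.57 (SE 0.11; edgeR, adjusted p = 0.0011), but on the TPM scale it was 0.25 and did not pass. The other pair, PSMG1 and PSMG2, had changes of 0.15 (SE 0.12; edgeR, adjusted p = 0.34) and 0.12 (SE 0.10; edgeR, adjusted p = 0.35) by edgeR and did not pass.

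Of the activators, PSME3 fell at 12 h on every scale, and with TMM scaling no other passed at that time by edgeR. DESeq2 and the fit with the length offset each called 1 activator, PSME4, as risen at 12 h. PSME3 encodes the activator of the nucleus, whereas PSME1 and PSME2 form the activator induced by interferon-γ. PSME3, on chromosome 19, 42859304 to 42866438, had 90.2, 89.8, 95.5 and 92.3 scaled CPM in controls, 92.3, 94.7, 96.2 and 88.0 at 4 h and 74.2, 79.9, 71.7 and 73.0 at 12 h. All 12 h cows lay below all control and 4 h cows. The log2 fold change was -0.30 (SE 0.07; edgeR, adjusted p = 0.0030) at 12 h and 0.01 at 4 h. PSME1 and PSME2 had changes of 0.25 (SE 0.13; edgeR, adjusted p = 0.14) and 0.21 (SE 0.13; edgeR, adjusted p = 0.20) at 12 h by edgeR, and those of the inhibitor PSMF1 were -0.07 at 4 h and 0.11 at 12 h, none of which passed.

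Whether the 2 times differed was tested directly by comparing 12 h with 4 h. With TMM scaling 25 of 46 members were higher at 12 h and 5 were lower (edgeR), where 22.5% of all genes were higher and 24.3% lower. DESeq2 called 9 as lower, where it called 26.2% of all genes so. The members' median difference was 0.28 and that of all genes was 0.02. Of the 14 core genes 11 were higher, by 0.20 to 0.42 on the log2 scale, and PSMA1, PSMA2 and PSMB2 did not pass. With the length offset 1 core gene was higher, PSMB4, and on the TPM scale 0 were higher and 1, PSMB2, was lower. The 5 lower members were PSMD1, PSMD11, PSMD12, PSME3 and PSME4. On the log2(TPM + 1) scale 2 members, PSMB10 and PSMG4, were higher and 12 were lower by limma, where 44.9% of all genes passed in either direction, 1304 of 14481 being higher and 35.9% lower. The median of the members was then -0.0011 and that of all genes -0.21. With the length offset 7 were higher and 4 lower, where 20.9% of all genes were higher and 22.3% lower. The higher values of PSMB10 and PSMG4 and the lower values of PSMD11, PSMD12 and PSME3 passed under all 22 alternatives.

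PSMD12, a lid subunit on chromosome 19, 49494955 to 49515377, did not pass against control at either time with TMM scaling. At 12 h it fell on the TPM scale, by 0.49, and with the length offset, by 0.27. It had 59.7, 73.1, 66.7 and 68.2 scaled CPM in controls, 72.9, 81.8, 74.8 and 71.5 at 4 h and 55.4, 58.1, 65.6 and 55.4 at 12 h. The 12 h cows lay below every 4 h cow and overlapped the controls. The difference of 12 h from 4 h was -0.36 (SE 0.09; edgeR, adjusted p = 0.0051), and the changes from control were 0.17 at 4 h and -0.19 at 12 h.

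Members that rose and members that fell at 12 h differed in transcript length. Proteasome transcripts are short, with a median of 1361 bases against 2216 over all genes tested. The 14 that rose at 12 h had a median of 998 bases (372 to 2107), and the 7 that fell had a median of 2240 bases (1305 to 3165). Across the 46 members, which share the same libraries and are not independent, Spearman's rho of length with the log2 fold change was 0.16 at 4 h, -0.47 at 12 h and -0.67 for 12 h against 4 h. Over all 14481 genes it was 0.08, -0.20 and -0.27. On the TPM scale the value for the members at 12 h was -0.49, and with the length offset it was -0.29. The part of transcript length in the members' changes was not tested. Of the 14 members that rose, 9 also passed with the length offset, and all 7 that fell did so.

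**Figure D5:**
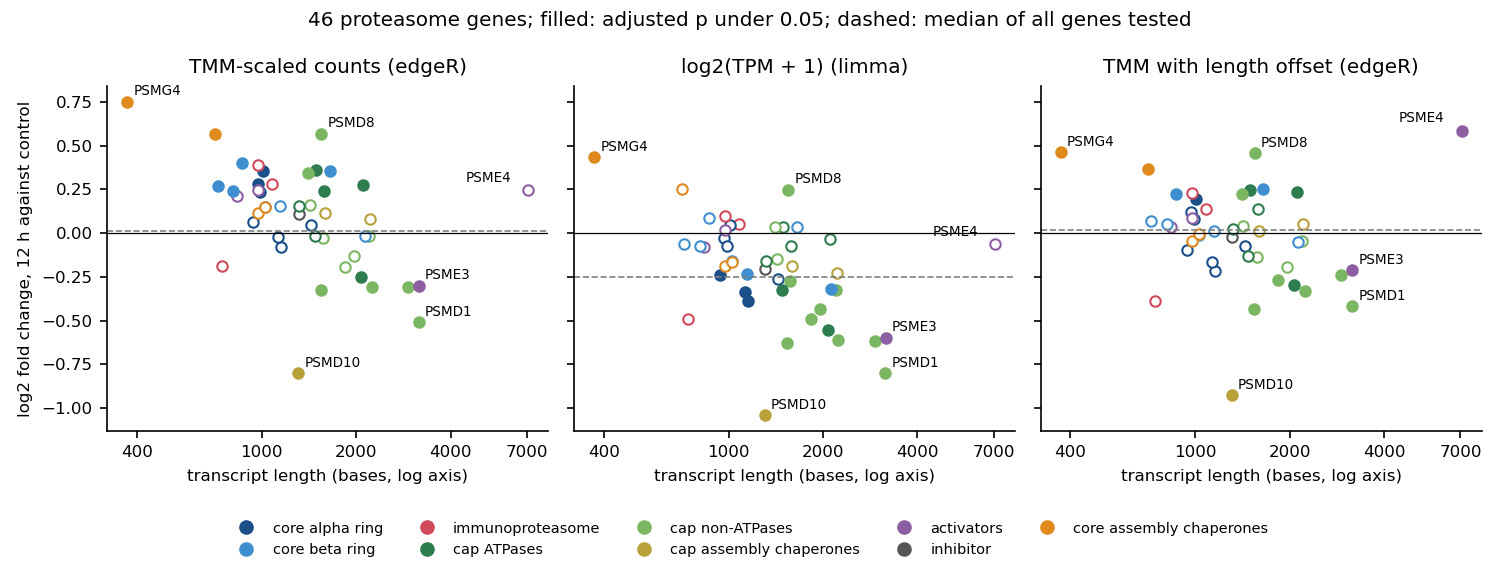
Log2 fold change at 12 h against transcript length in bases (log axis) for the 46 members on 3 scales, with filled points for an adjusted p under 0.05 and a dashed line for the median of all genes tested. With TMM scaling (left) and in TPM (middle) shorter transcripts lie higher. The TPM panel is shifted down with its dashed line at -0.25, and the length offset (right) moves the long PSME4 up to 0.59.

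Proteins that work with the proteasome were followed as companions. Counts of companion genes use TMM scaling and edgeR unless another scale is named, and at 12 h they stand beside 23.6% of all genes risen and 25.3% fallen (10.4% and 38.9% on the TPM scale). Their counts at 4 h stand beside 8.65% of all genes risen and 5.59% fallen with TMM scaling. Of 13 genes of proteasome-associated proteins, 6 rose and 2 fell at 12 h (3 and 5 on the TPM scale), and 2 rose and 1 fell at 4 h. POMP, the chaperone that matures the β ring, rose by 0.55 on the log2 scale at 12 h (edgeR, adjusted p = 4.93e-05), and SEM1, the smallest lid subunit, by 0.52 (edgeR, adjusted p = 8.82e-05). ZFAND5, a zinc finger protein that stimulates the proteasome, rose by 0.71 at 4 h and by 1.09 at 12 h. UBE3C, a ubiquitin ligase bound to the proteasome, fell by 0.82 at 12 h. ADRM1, the ubiquitin receptor of the cap, had a change of 0.16 and did not pass. On the TPM scale POMP and ZFAND5 rose as well, and SEM1 was at 0.21 and did not pass.

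Of 11 genes of the transcriptional control of the proteasome, 1 rose and 5 fell at 12 h (0 and 5 on the TPM scale), and 4 rose and 2 fell at 4 h. NFE2L1, the factor that raises proteasome genes when proteasome activity is short, fell by 0.68 at 12 h (edgeR, adjusted p = 0.0018) and had a change of -0.20 at 4 h that did not pass. VCP, the unfoldase that brings NFE2L1 out of the endoplasmic reticulum, fell by 0.68 at 12 h, and FBXW7, a ubiquitin ligase subunit that recognizes NFE2L1, fell by 0.57 at 4 h and by 0.98 at 12 h. NFE2L2, the related factor of the oxidative stress response, rose by 0.32 at 4 h and by 0.30 at 12 h, but on the TPM scale its value at 12 h was -0.0064.

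Of the 8 genes of ubiquitin and its activating enzymes, 4 rose and 1 fell at 12 h (3 and 3 on the TPM scale, with a median of -0.14 against 0.20 with TMM), and 1 rose and 2 fell at 4 h. RPS27A, which encodes ubiquitin fused to a ribosomal protein, rose by 0.76 on the log2 scale at 12 h (edgeR, adjusted p = 5.58e-04). UBB, which encodes a chain of ubiquitin units, rose by 0.35. UBB was close to the threshold (edgeR, adjusted p = 0.0498) and did not pass with the length offset. On the TPM scale UBB was at 0.037 and did not pass. UBA6, an activating enzyme, fell by 0.39 at 4 h, where it did not pass on the TPM scale, and by 0.28 at 12 h, where it was at -0.07 and did not pass with the length offset. Of 28 conjugating enzymes 11 rose and 3 fell at 12 h with TMM scaling, and 2 rose and 10 fell on the TPM scale, with UBE2E1 and UBE2D1 at 1.10 and 1.02 and UBE2H at -1.11 with TMM scaling. At 4 h edgeR called 1 of the 28 as risen and 0 as fallen, DESeq2 3 and 0, and 4 had an unadjusted p under 0.05. Of 11 shuttle receptors, which carry ubiquitinated proteins to the proteasome, 2 rose and 4 fell at 12 h (1 and 8 on the TPM scale), with UBXN1 at 1.02 and UBQLN1 at -1.21. At 4 h edgeR called 0 of them, DESeq2 called 2 as risen, and 2 had an unadjusted p under 0.05.

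Genes that act with the immunoproteasome were followed too. Of 11 genes of MHC class I peptide loading, 2 rose and 5 fell at 12 h (0 and 8 on the TPM scale). TAP1, a subunit of the peptide transporter, fell by 0.83 at 12 h (edgeR, adjusted p = 0.010) and had a change of -0.60 at 4 h that did not pass. At 4 h edgeR and DESeq2 called 0 of the 11, with 2 at an unadjusted p under 0.05. Of 13 interferon signaling factors 2 rose and 4 fell at 12 h (1 and 4 on the TPM scale), and 3 rose and 1 fell at 4 h. IRF1, a factor that drives immunoproteasome genes, did not pass against control by edgeR (-0.51 at 4 h and 0.24 at 12 h) but was higher by 0.75 at 12 h than at 4 h (adjusted p = 0.045). That difference was 0.48 on the TPM scale and did not pass.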

How the data were processed

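Each of the 12 cows gave 1 table of 27270 genes. For every gene the authors deposited RSEM's expected count, which need not be whole, beside TPM, FPKM and a transcript length in bases. The submitters' processing notes name RSEM 1.3, STAR 2.5 and the genome build ARS-UCD 1.2. Library depth was 10263310 to 22600213 expected counts. The labels give 4 cows per group. Nothing in the labels ties cows of different groups to each other.

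Expected counts were rounded. Genes with 10 counts or more in no fewer than 4 of 12 libraries were scaled by TMM and fitted in 1 model of 3 groups with edgeR 4.0.16 (quasi-likelihood test). P-values were adjusted by Benjamini-Hochberg over the 14481 genes of each comparison, at a threshold of 0.05. The SE of a log2 fold change is its size divided by the square root of the F statistic. A p-value from edgeR refers to the spread between cows, which includes counting error. The deposited TPM and FPKM were used for levels and for ratios within a cow. The alternatives were DESeq2 1.42.0, RLE scaling, no count minimum, a minimum of 50, fits restricted to the compared groups, limma 3.58.1 on log2(TPM + 1) and log2(TPM + 0.1), no mitochondrially encoded genes, removal of the dependence of counts on transcript length in every library (spline with 5 degrees of freedom, as an offset), each cow left out, and cow6455 and cow6314 left out together. For the ratios, medians of cows and FPKM were tried. The fits were tested on simulated data.

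The members, the 7 companion lists and the 6 marker lists were chosen with earlier results of these data known. Every member may be named, and of each list up to 4 genes with the smallest p at 12 h, plus NFE2L1, IRF1, TAP1, POMP, ADRM1, SEM1 and UBB. Some genes that this rule would name are not reported here. KIAA0368 and DDI2 were not analysed. Neutrophil markers (8 tested) showed 5 rises and 0 falls at 12 h, and endothelial markers (12) showed 3 rises and 2 falls. Of all genes tested 23.6% rose and 25.3% fell at 12 h. Scripts ran in R 4.3.3 and in Python 3.11.15 (matplotlib 3.10.9 for plots, scipy 1.17.1 for rank correlations, pandas 2.3.3 and numpy 2.4.6 for tables). No sequence is printed, since no sequence of the files' build was given.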

Additional observations from a re-analysis of the deposited data

Results flagged for a closer look

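In groups of 4 cows, the highest or lowest cow was set against the other 3. Of 147 such groups of TPM values and ratios, 7 held a cow far from the others, and chance alone gives about 1 in 20 groups. At 12 h cow6314 lay apart for PSMD10 (11.36 TPM against 6.16 to 6.51), for PSMD9 (23.59 against 21.0 to 21.13) and for PSME3 (39.49 against 29.64 to 30.34). At 4 h cow6455 lay apart for PSME4 (22.02 TPM against 31.91 to 32.01) and for PSMB2 (107.5 against 123.2 to 125.0). Control cow7367 lay apart for PSMD7 (135.6 TPM against 144.4 to 146.1). At 4 h cow5341 had a PSMB10 to PSMB7 ratio of 0.6062, against 0.708 to 0.721 in the others. Without cow6455 and cow6314 together, 14 members rose and 7 fell at 12 h, where 3285 of 14481 genes rose and 3796 fell.

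The effect at 12 h differed from that at 4 h, by the direct edgeR comparison of both times, for 25 members that were higher and 5 that were lower at 12 h. Among all genes 22.5% were higher and 24.3% lower. On the TPM scale the counts of members were 2 and 12, where 1304 of 14481 genes were higher and 35.9% lower.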

How the results depend on the processing

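No paired analysis was possible because each cow gave 1 library and no cow number is shared between groups. The scale changed most. On log2(TPM + 1) and log2(TPM + 0.1) alike, with limma, 2 members rose and 17 fell at 12 h, and 2 were higher and 12 lower at 12 h than at 4 h. Among all genes on log2(TPM + 1), 10.4% rose and 38.9% fell at 12 h, and 35.9% were lower at 12 h than at 4 h. The members' median at 12 h was -0.18 on both TPM scales (0.15 with TMM), and for 12 h against 4 h it was -0.0011 (0.28 with TMM). With the length offset 7 members were higher at 12 h than at 4 h, where 20.9% of all genes were. The medians of the members were then -0.063 at 4 h, 0.012 at 12 h and 0.11 between the times. DESeq2 called 3 members as fallen at 4 h and 9 as lower at 12 h than at 4 h. For all genes these shares were 7.46% and 26.2%.

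On log2(TPM + 1), 19 of 46 members changed sign at 12 h against control and 12 for 12 h against 4 h, all from above 0 to below it. Those with a call on either scale, and 1 companion gene, had these values on the TPM scales (pseudocount 1, then 0.1 where it differs) at 12 h against control: PSMA3 -0.24, PSMA5 -0.071, PSMA6 -0.028 and -0.029, PSMB2 -0.23, PSMB3 -0.062 and -0.063, PSMB6 -0.072, PSMC3 -0.031 and -0.032, PSMC6 -0.074 and -0.075 and NFE2L2 -0.0064 and -0.0065. For 12 h against 4 h they were PSMA3 -0.043, PSMB2 -0.27, PSMB5 -0.081 and -0.082 and PSMC5 -0.0037. The shift of the median of all genes to -0.25 at 12 h in TPM is part of each such value.

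With each cow left out, the count that fell at 4 h was 0 (without 4 h cow5341) to 2 (without control cow4285 or cow7367). The median at 4 h ranged from -0.112 to -0.068, that at 12 h from 0.087 to 0.224, and that between the times from 0.212 to 0.314. The cause was not tested. The group values of the ratios moved by less than their SD when the median of cows replaced the mean. FPKM could not change the ratios beyond rounding, since within a library it differs from TPM by a factor common to all genes. The SEs of the members' changes were 0.07 to 0.23, and the smallest change that passed the test was 0.20 (PSMB5, 12 h against 4 h).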
